A study of Mus musculus with 6 samples.

Results

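The immunoglobulin genes with reads in LSK cells are described here, namely the variable (V), diversity (D), joining (J) and constant segments of the heavy, kappa and lambda chains and the joining chain gene Jchain. Members were chosen by gene symbol and by their summed level, with at least 20 counts over all 6 libraries, which left 39 of the 396 immunoglobulin genes named in a table of 45706 genes. Another 43 of the 396 had between 1 and 17 counts, and 314 had none. The members comprised 13 of 185 heavy chain V segments, 11 of 160 kappa V segments, 1 of 3 lambda V segments, 1 of 20 D segments, all 4 heavy chain J segments, 2 of 5 kappa J segments, 3 of 8 heavy chain constant genes, the kappa constant gene Igkc, 2 of 4 lambda constant genes and Jchain. None of 5 lambda J segments reached the minimum. Just inside it lay Ighv1-81, Ighv1-82 and Igkj5 with 21 counts each, and just outside lay Ighv6-6 and Iglc2 with 17 counts each and Ighe with 15 counts. The minimum was set on the sum over both genotypes, so that a segment could enter through a single library.

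LSK cells (Lin- Sca-1+ c-Kit+), the bone marrow compartment that holds hematopoietic stem and multipotent progenitor cells, were compared between 3 Ctrl mice (Setd1b HET, FD/+; RC/+) and 3 cKO mice (Setd1b HOM, FD/FD; RC/+), to find early changes upon loss of the H3K4 methyltransferase Setd1b. FD is the conditional Setd1b allele and RC the Rosa26-Cre-ERT2 transgene, which all mice of both groups carried, and which is expressed ubiquitously and not in blood cells alone. All were male C57BL/6 mice, described as littermates, that had received 4.5 mg tamoxifen per day by gavage on 4 days and, after a pause of 3 days, on 2 more days, and cells were taken 3 days after the last dose. This schedule is that of the labels, and the number of doses in the study's methods differs from it. The mice were 16 weeks old except for cKO 3, which was 17 weeks old. The antibody cocktail used to remove mature lineages held neither B220 nor CD138. Each mouse gave 1 library, and the numbers of the mice follow the order of their records and pair no Ctrl mouse with a cKO mouse.

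Counted reads per library lay between 13003573 and 21277519 (median 14889023.5). By the numbers given to the libraries, which are not those in the names of the mice, the libraries fall into 2 series. Neither the labels nor the methods state this division. The first series holds Ctrl 1, cKO 1 and cKO 2, and the second holds Ctrl 2, Ctrl 3 and cKO 3. Setd1b itself stood at 194 to 222 CPM in Ctrl and at 272 to 314 CPM in cKO libraries (log2 fold change 0.46, edgeR adjusted p = 0.0015). This goes against the direction a deletion would give, but the count covers all exons of the gene while Cre removes 1 of them, so that it does not check the labels. The defining genes of the gate, Kit at 395 to 513 CPM and Ly6a, which encodes Sca-1, at 35.7 to 56.2 CPM, were present in every library and did not pass the threshold (adjusted p = 0.84 and 0.33).

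An immunoglobulin chain is encoded by segments that lie apart in the genome and are joined by DNA recombination as a B cell develops, first V, D and J for the heavy chain, then V and J for a light chain. Each B cell and all its daughters thereby express 1 heavy chain V segment and 1 light chain V segment, whereas the constant genes behind them are few and each is used by many B cells with different V segments. The heavy chain locus also gives transcripts before it is rearranged, from the D and J segments next to the constant gene and from the enhancer between J and Ighm, and such transcripts carry no V segment.

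The segments that the comparison of libraries turns on are those that led the V member counts of at least 1 library with 20 or more such counts, and the single lambda V member. For each, the last 75 bases of the germline segment are given 5′ to 3′ on the coding strand, the length of 1 read, with the last in-frame cysteine codon in capitals. This codon marks the end of the framework, and the bases after it enter the junction with D or J. All were read from GENCODE M21 transcripts of GRCm38. The first 5 lie in the heavy chain locus on the minus strand of chromosome 12, at chr12:114513330-114513404 (Ighv1-5), chr12:113736111-113736185 (Ighv5-9-1), chr12:113838526-113838600 (Ighv5-16), chr12:115920279-115920353 (Ighv1-81) and chr12:114048241-114048315 (Ighv11-2). The next 4 lie in the kappa locus on chromosome 6, on the plus strand for Igkv1-135 (chr6:67610434-67610508) and Igkv14-126 (chr6:67896568-67896642) and on the minus strand for Igkv5-43 (chr6:69823355-69823429) and Igkv8-30 (chr6:70117061-70117135). The last lies on the minus strand of the lambda locus (chr16:19085017-19085091).
Ighv1-5, leading in Ctrl 1: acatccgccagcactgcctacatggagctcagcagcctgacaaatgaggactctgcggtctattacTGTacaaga
Ighv5-9-1, leading in Ctrl 2: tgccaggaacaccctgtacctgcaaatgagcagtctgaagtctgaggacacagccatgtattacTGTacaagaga
Ighv5-16, leading in Ctrl 3: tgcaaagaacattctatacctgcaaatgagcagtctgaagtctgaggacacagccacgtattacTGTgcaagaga
Ighv1-81, leading in cKO 1: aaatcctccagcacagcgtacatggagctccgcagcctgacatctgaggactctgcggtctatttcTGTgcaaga
Ighv11-2, leading in cKO 2: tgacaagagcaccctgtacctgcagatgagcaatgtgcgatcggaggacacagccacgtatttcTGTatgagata
Igkv1-135, leading in Ctrl 1: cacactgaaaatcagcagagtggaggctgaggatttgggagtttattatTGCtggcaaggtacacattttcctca
Igkv5-43, leading in Ctrl 2: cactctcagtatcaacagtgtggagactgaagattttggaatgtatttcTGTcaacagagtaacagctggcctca
Igkv8-30, leading in Ctrl 3: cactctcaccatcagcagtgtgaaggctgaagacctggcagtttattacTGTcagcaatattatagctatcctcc
Igkv14-126, leading in cKO 2: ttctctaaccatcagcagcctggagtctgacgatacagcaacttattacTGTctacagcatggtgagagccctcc
Iglv1, the lambda V member: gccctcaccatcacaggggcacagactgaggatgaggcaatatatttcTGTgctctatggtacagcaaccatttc

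Over their last 280 bases, the 5 leading heavy chain segments shared between 58.6% (Ighv5-16 and Ighv1-81) and 83.9% (Ighv1-5 and Ighv1-81) of bases with each other, and the 4 leading kappa segments between 63.4% and 73.2%. They are thus distinct sequences, but some have a near copy elsewhere in their locus. The closest were Igkv5-43 and Igkv5-45 (98.9%) and Ighv11-2 and Ighv11-1 (98.6%). Of all 75-base stretches of a V member, a median of 95.3% occurred in no other GENCODE transcript, and 11 of 25 members were unique throughout. The lowest share was 61.0%, for Igkv5-43, followed among the leading segments by 75.2% for Ighv11-2 and 84.4% for Igkv1-135. Since uniquely aligned reads were counted, levels of such segments are uncertain and could be divided between copies.

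The summed level of the members was lower in every cKO library than in every Ctrl library, for the constant and the V segments of both the heavy and the kappa chain. Levels are given as CPM, counts per 1000000 counts of a library scaled with TMM factors (a correction for library composition), and sums are compared between libraries within a class. All 39 members together stood at 481, 690 and 273 CPM in Ctrl 1, 2 and 3 and at 108, 170 and 75.4 CPM in cKO 1, 2 and 3. The groups did not overlap.

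The heavy chain constant genes summed to 313, 432 and 195 CPM in Ctrl and 90.5, 123 and 72.1 CPM in cKO, a ratio of means of 3.29. The ratio was 9.22 for the heavy chain V members, which stood at 23.8, 43.0 and 8.82 CPM in Ctrl and 1.34, 6.79 and 0.070 CPM in cKO. Kappa V members stood at 31.7, 37.8 and 12.4 CPM in Ctrl and 0.669, 8.50 and 0 CPM in cKO, a ratio of 8.93. Members entered by a sum to which Ctrl gave most counts, and over all V segments of the table the heavy chain stood at 24.1, 44.9 and 10.7 CPM in Ctrl and 1.67, 7.17 and 0.840 CPM in cKO (ratio 8.23). For kappa V this was 33.1, 38.0 and 12.4 CPM in Ctrl and 1.61, 8.88 and 0 CPM in cKO (ratio 7.96), so that the groups did not overlap in either set. The smallest gap lay between Ctrl 3 and cKO 2, which were close for heavy chain V and for kappa V. The 4 heavy chain J segments stood at 3.59, 4.28 and 0.959 CPM in Ctrl against 2.81, 3.04 and 1.68 CPM in cKO (ratio 1.17), and here the groups overlapped. No test was made of sums over members.

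**Figure D1:**
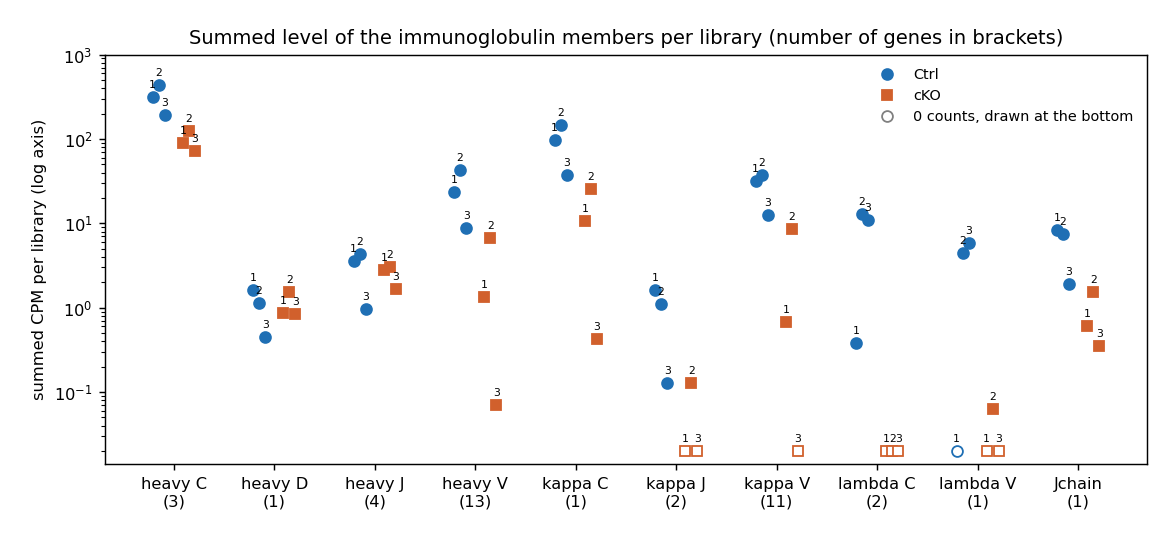
Summed CPM per library (vertical log axis) of the members of each class (horizontal axis, number of genes in brackets), with 1 point per library, circles for Ctrl and squares for cKO, numbered by mouse, and open symbols at the bottom for 0 counts. Every cKO point lies below every Ctrl point for heavy C, heavy V, kappa C, kappa V, lambda C and Jchain, and for kappa J with Ctrl 3 (0.128) and cKO 2 (0.127) next to each other, while heavy D (Ctrl 1.60, 1.14 and 0.447; cKO 0.870, 1.52 and 0.840) and heavy J overlap.

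Ighm, the mu constant gene of the first antibody class a B cell makes (chr12:113418558-113422730, minus strand), had the most counts of all members, with 3948, 9035 and 3034 counts in Ctrl and 1334, 1900 and 1004 in cKO. This corresponds to 302, 430 and 194 CPM and to 89.3, 121 and 70.3 CPM, so that the highest cKO library lay below the lowest Ctrl library. Ighm fell by 1.72 on the log2 scale (SE 0.22, edgeR quasi-likelihood test, adjusted p = 2.1e-04), from a mean of 309 ± 118 CPM to 93.4 ± 25.4 CPM (SD, n = 3 each). The log2 difference of cKO from Ctrl was -1.54 within the first library series and -2.04 within the second.

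Igkc, the constant gene of the kappa light chain (chr6:70726435-70726966, plus strand), had 1275, 3071 and 578 counts in Ctrl and 161, 400 and 6 in cKO. At 97.4, 146 and 36.9 CPM against 10.8, 25.4 and 0.42 CPM, the groups did not overlap, and cKO 3 stood apart at the bottom. Igkc fell by 2.92 on the log2 scale (SE 0.58, adjusted p = 0.0060 with edgeR), from 93.5 ± 54.7 CPM to 12.2 ± 12.5 CPM (SD, n = 3 each). The log2 difference of cKO from Ctrl was -2.55 within the first library series and -7.07 within the second, the latter with cKO 3 as the only cKO library. With DESeq2 in place of edgeR the call was lost (adjusted p = 0.16). In bulk samples, fewer cells that carry these transcripts and less transcript per cell cannot be told apart.

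Jchain, whose product links IgM pentamers and IgA dimers in antibody-secreting cells (chr5:88519809-88527891, minus strand), had 109, 155 and 30 counts in Ctrl and 9, 24 and 5 in cKO. These are 8.33, 7.38 and 1.92 CPM against 0.602, 1.52 and 0.350 CPM, again without overlap, though Ctrl 3 and cKO 2 were close. Jchain fell by 2.80 on the log2 scale (SE 0.53, adjusted p = 0.0044 with edgeR), from 5.87 ± 3.46 CPM to 0.825 ± 0.617 CPM (SD, n = 3 each), with log2 differences of -2.95 and -3.04 within the library series.

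The remaining constant genes were low or present in a single library. Ighd, the delta constant gene that is transcribed together with Ighm in mature B cells, had 24, 40 and 14 counts in Ctrl and 19, 36 and 25 in cKO. At 1.83, 1.90 and 0.895 CPM against 1.27, 2.28 and 1.75 CPM the groups overlapped (log2 fold change 0.19, SE 0.40, adjusted p = 0.83 with edgeR). Igha, the constant gene of IgA, had 119 counts in Ctrl 1, 1 in cKO 2 and 0 in the other libraries.

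The lambda constant genes, which take the place of Igkc in a minority of mouse B cells, were each concentrated in 1 Ctrl mouse. Iglc1 had 262 counts in Ctrl 2 and 0 elsewhere, and Iglc3 had 5, 7 and 170 counts in Ctrl 1, 2 and 3. Both were at 0 in every cKO library, where a count of 0 allows up to 3 counts per library. For Iglc3, this makes the mean of cKO at least 19.3-fold lower than that of Ctrl (3.86 ± 6.07 CPM, SD, n = 3), and at least 1.78-fold lower without Ctrl 3. These bounds cover counting and not the spread between mice. Iglc1 and Iglc3 also reached the minimum for members through Ctrl counts alone, so that their lack in cKO carries no weight by itself. The lambda V member Iglv1 had 0, 94 and 91 counts in Ctrl and 0, 1 and 0 in cKO. None of the lambda genes passed the filter on low counts, and none was tested. With 3 mice against 3, an exact two-sided permutation test of a single value cannot go below p = 0.1.

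The test across the whole table kept 15184 genes with enough counts in enough libraries, and 8 of the 39 members were among them. Past the threshold of 0.05 (adjusted p, edgeR), 4 of these were lower in cKO, namely Ighm, Jchain, Igkc and Igkv1-135, against a background of 3.79% of all genes tested. None was higher, with a background of 3.88%, and at an unadjusted p under 0.05 the count was also 4 lower and 0 higher. Igkv1-135 entered the test through its Ctrl libraries alone, so that it had to differ, and the share of tested members carries no weight by itself. The 31 other members were too low or in too few libraries. Over the 8 tested members the median log2 fold change was -1.79, and over all genes tested it was 0.00. Every cKO library lay below every Ctrl library in 5 of 39 members, the 4 above and Iglc3, which was not tested. Among genes tested, 4 of the 8 members were ordered in this way, and 13.4% of all genes. Igkv1-135 and Iglc3 were at 0 in every cKO library and had entered through Ctrl counts alone, so that their order carries no weight by itself. The other 34 members overlapped.

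**Figure D2:**
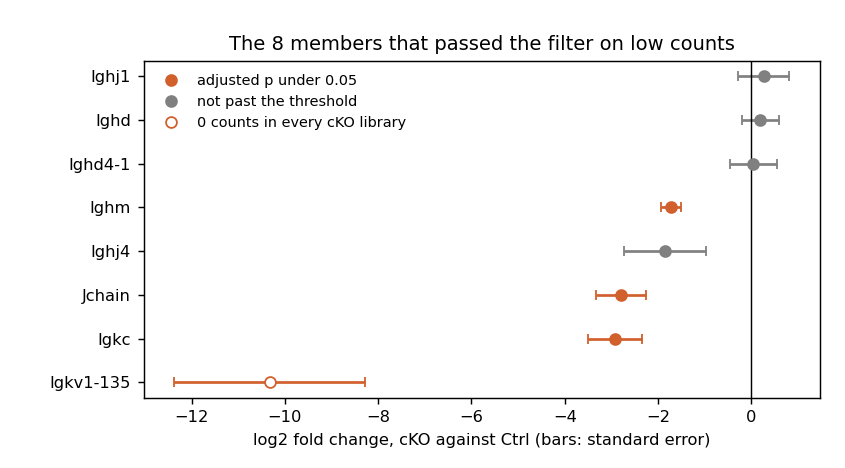
Log2 fold change of cKO against Ctrl (horizontal axis) with its standard error (bars) for the 8 members that passed the filter on low counts, coloured by whether the edgeR adjusted p was under 0.05. Ighm, Jchain and Igkc lie between -2.92 and -1.72, Ighd, Ighj1 and Ighd4-1 lie within 0.26 of 0, and the open symbol of Igkv1-135 is a fitted value against libraries with 0 counts, whose position depends on the added prior count.

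Igkv1-135 was the V segment with at least 10 counts in the most libraries, with 369, 41 and 18 counts in Ctrl and 0 in every cKO library (28.2, 1.95 and 1.15 CPM against 0). All Ctrl libraries lay above all cKO libraries, and Ctrl 1 held most of the counts. Its adjusted p (0.0074, edgeR) is given for completeness only, since the segment passed the filter through Ctrl alone. Against the limit of 3 counts per cKO library, the mean of Ctrl (10.4 ± 15.4 CPM, SD, n = 3) was at least 52.1-fold higher, and at least 7.74-fold higher without Ctrl 1. Reads of Igkv1-133, which is 96.1% identical over the last 280 bases, numbered 9 over all libraries.

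Among V members, the most used segment was a different one in each library that had enough counts, and its share ranged from 22.0% to 88.9%. In the heavy chain locus, Ighv1-5 took 64.0% of 311 V counts in Ctrl 1 (95% Wilson interval 58.5 to 69.1%). In Ctrl 2, Ighv5-9-1 took 40.5% of 903 counts (37.4 to 43.8%), and in Ctrl 3, Ighv5-16 took 52.9% of 138 counts (44.6 to 61.0%). In these 3 mice, 5, 8 and 3 heavy chain V members had any count.

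In cKO 1, Ighv1-81 took 85.0% of only 20 counts (64.0 to 94.8%). In cKO 2, Ighv11-2 and Ighv1-26 took 48.6% (39.3 to 58.0%) and 47.7% of 107 counts, and Ighv1-26, the shorter of both, led when counts were divided by length. Heavy chain V members had a single count in cKO 3. The intervals cover counting error only, since reads of amplified cDNA without molecular identifiers are not independent molecules.

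In the kappa locus, Igkv1-135 took 88.9% of 415 counts in Ctrl 1 (85.5 to 91.6%). Igkv5-43 led in Ctrl 2 with 22.0% of 794 counts (19.3 to 25.1%), closely followed by Igkv1-88 (154 counts, 19.4%), Igkv14-126 (150 counts) and Igkv19-93 (140 counts). In Ctrl 3, Igkv8-30 took 57.2% of 194 counts (50.2 to 64.0%). In cKO 2, Igkv14-126 and Igkv5-48 shared 134 counts as 53.0% (44.6 to 61.2%) and 47.0%. All 10 counts of kappa V members in cKO 1 came from Igkv12-44, and cKO 3 had none. Over all kappa V segments of the table, cKO 1 had 24 counts, led by Igkv4-59 with 12 counts, a segment below the minimum for members, and cKO 3 again had none. Shares are of counts, and V members were of similar exon length, between 347 and 461 bases, with the same leader by counts and by counts per base in 8 of 9 pairs of library and locus.

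**Figure D3:**
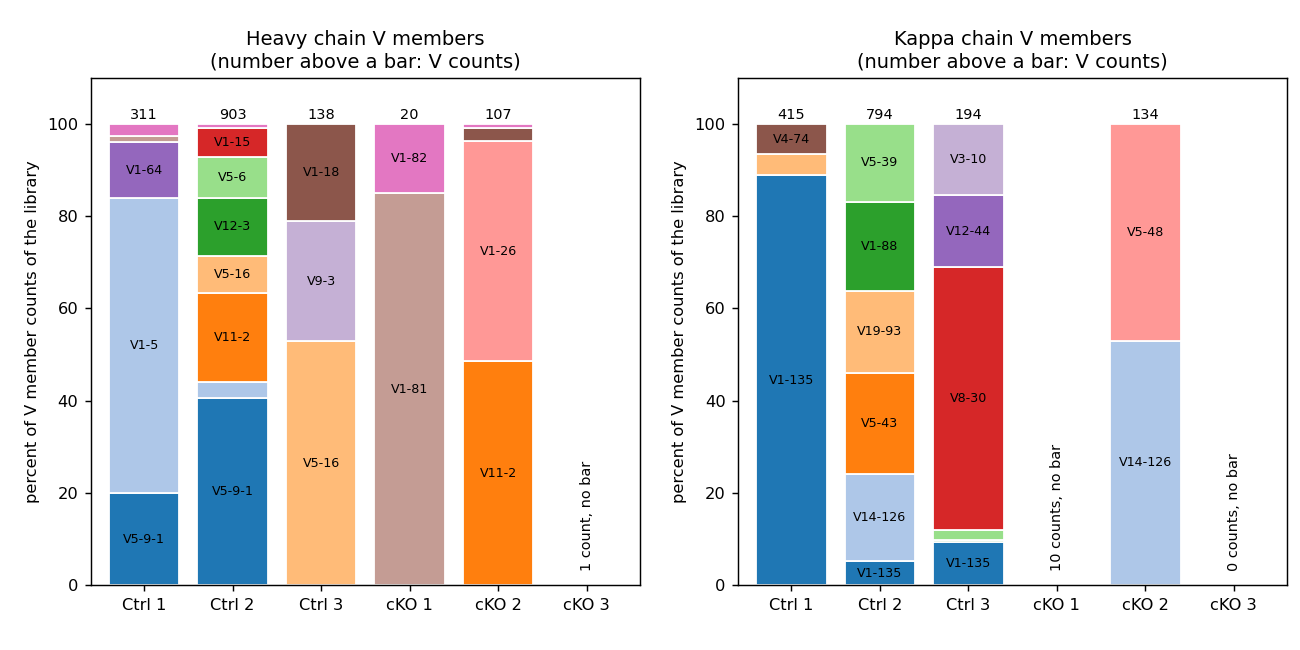
Share of each V segment in the V member counts of a library (vertical axis, percent) for the heavy chain (left) and the kappa chain (right), with the number of V counts above each bar, a colour per segment within a panel and no bar under 20 counts. The largest piece is a different segment in every bar, from 22.0% (Igkv5-43 in Ctrl 2) to 88.9% (Igkv1-135 in Ctrl 1).

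The effective number of V segments, which is the number of equally used segments that would give the same inverse Simpson index, was 2.15, 4.22 and 2.55 for the heavy chain in Ctrl 1, 2 and 3 and 1.34 and 2.15 in cKO 1 and 2. For kappa it was 1.25, 5.43 and 2.60 in Ctrl and 1.99 in cKO 2. Both genotypes overlapped, and Ctrl 2, the library with the most V counts, had the highest value in both loci. To set libraries of unequal V counts side by side, the number of distinct segments in 20 counts drawn from each library was computed. For the heavy chain this was 3.57, 5.99 and 2.99 in Ctrl and 2.00 and 2.65 in cKO 1 and 2, and for kappa 2.37, 5.58 and 4.27 in Ctrl and 2.00 in cKO 2. The available cKO values lay below those of Ctrl, with no value for cKO 3 in either locus, and no test was made of them. This order was lost when all V segments of the table were entered, with 4.59 heavy chain segments in cKO 1 against 3.87 in Ctrl 1, and 3.67 kappa segments in cKO 1 against 3.07 in Ctrl 1. How far the 20 counts of cKO 1 can show concentration is limited by their number.

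Most V segments were found in 1 or 2 mice. Of the 25 V members, 14 had at least 90% of their counts in 1 library and 11 had all of them there. The median share of the highest library was 97.1% for V members, and 45.7% for the 14 members that are not V segments. Some of the latter were also concentrated in 1 library, namely Iglc1 and Igkj5 (100% each), Igha (99.2%), Iglc3 (93.4%) and Igkj2 (85.2%). The others lay between 23.8% (Ighd4-1) and 55.9% (Igkc). With 10 or more counts, 15 V members were found in 1 library, 8 in 2 libraries and Igkv1-135 in 3, while Ighv1-82 reached 10 counts in none. The highest library was a Ctrl library for 22 V members (5 in Ctrl 1, 11 in Ctrl 2 and 6 in Ctrl 3) and a cKO library for 3, namely Ighv1-81 in cKO 1 and Ighv1-26 and Igkv5-48 in cKO 2.

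**Figure D4:**
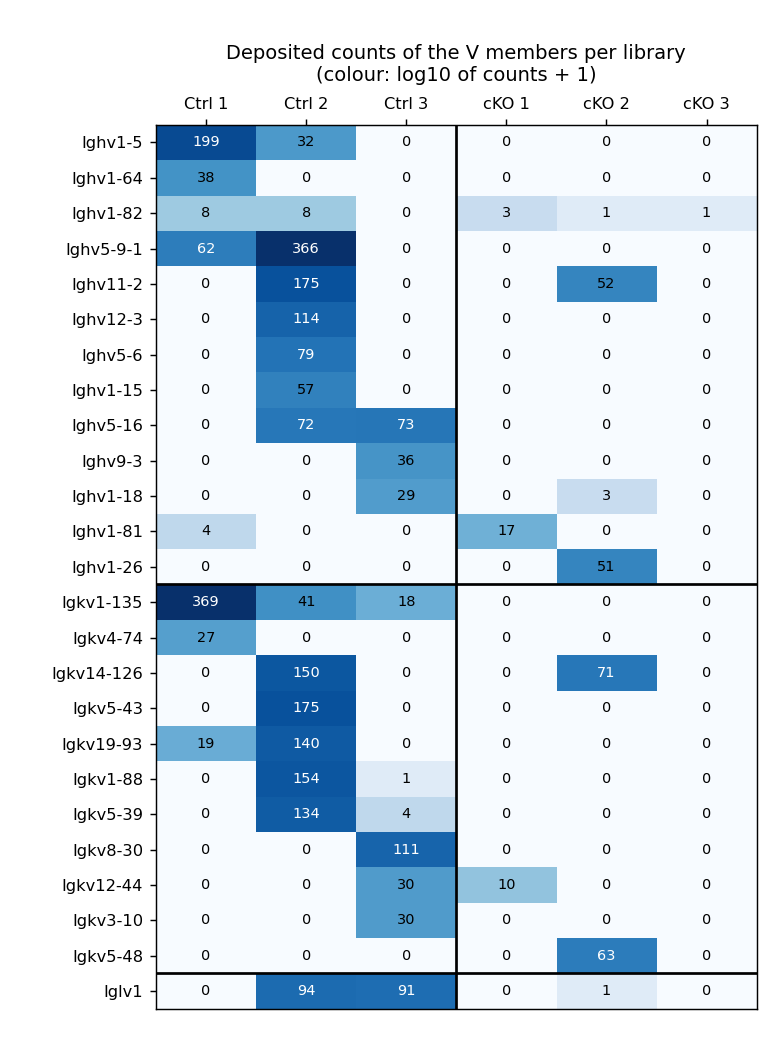
Deposited counts of the 25 V members (rows, grouped by heavy chain, kappa and lambda and then by the library with the most counts) in each library (columns), with darker blue for higher log10 of counts + 1. Most rows are dark in 1 or 2 columns, Igkv1-135 is the row with 10 or more counts in all Ctrl libraries, and the column of cKO 3 holds a single count.

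Several of the V members with the highest levels were not detected in cKO. Ighv5-9-1 had 62 counts in Ctrl 1 and 366 in Ctrl 2, and Ighv1-5 had 199 and 32 counts in the same mice. Ighv5-16 had 72 and 73 counts in Ctrl 2 and Ctrl 3, and Ighv12-3 had 114 counts in Ctrl 2. All 4 had 0 counts in every cKO library, and with them 16 of 25 V members (8 of 13 heavy chain and 8 of 11 kappa). These 16 reached the minimum for members through Ctrl counts alone. Their number thus depends on how members were chosen and carries no weight by itself. Conversely, Ighv1-26 with 51 counts and Igkv5-48 with 63 counts, both in cKO 2, were at 0 in every Ctrl library.

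The rest of the heavy chain V members had at most 79 counts in any library. Of these, Ighv5-6 (79 counts) and Ighv1-15 (57) were found in Ctrl 2, Ighv1-64 (38) in Ctrl 1, and Ighv9-3 (36) and Ighv1-18 (29) in Ctrl 3, with 3 more counts of Ighv1-18 in cKO 2. Ighv1-18 is 97.1% identical to Ighv1-26. The rest of the kappa members were Igkv5-39 with 134 counts in Ctrl 2 and 4 in Ctrl 3, Igkv3-10 with 30 in Ctrl 3, Igkv4-74 with 27 in Ctrl 1, and Igkv12-44 with 30 in Ctrl 3 and 10 in cKO 1. These were named to account for each member, after their values had been seen.

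Heavy and kappa segments that occurred in the same libraries included Ighv11-2 and Igkv14-126, a pair singled out after its values were seen. Such sharing was not particular to this pair. Ighv5-9-1, Ighv1-5 and Igkv19-93 had counts in Ctrl 1 and Ctrl 2 alone, and Ighv12-3 and Igkv5-43 in Ctrl 2 alone. Ighv11-2 had 175 counts in Ctrl 2 and 52 in cKO 2, Igkv14-126 had 150 and 71 counts in the same mice, and both were at 0 in the other 4 libraries. These segments are known together from the phosphatidylcholine-binding antibodies of B-1a cells, as is Ighv12-3. Whether they came from the same cells cannot be read from bulk counts.

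Across the loci, the V members were spread rather than drawn from 1 end. Heavy chain members lay between 196 and 2523 kb from the first J segment, with a median of 1084 kb against 1217 kb for all 185 heavy chain V segments of the table, and 7 of 13 belonged to the nearer 50% of them. Kappa members lay between 150 and 3113 kb from their J segments (median 996 kb, against 1483 kb for all 160), and 6 of 11 belonged to the nearer 50%. All 25 V members were annotated as functional V genes. The table also holds 130 V pseudogenes, of which 8 had any count, 16 counts in all.

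Heavy and light chain were set against each other within each library, first in V counts and then in constant counts. Heavy chain segments made up 42.8%, 50.4% and 32.6% of V member counts in Ctrl 1, 2 and 3, and 66.7% (95% Wilson interval 48.8 to 80.8%, 30 counts) and 44.2% (38.1 to 50.5%) in cKO 1 and 2. The groups overlapped. Ighm had 3.10, 2.94 and 5.25 counts for each count of Igkc in Ctrl, and 8.29, 4.75 and 167 in cKO. Per kilobase of exon, the ratio was 0.873, 0.830 and 1.48 in Ctrl and 2.34, 1.34 and 47.2 in cKO, with Ctrl 3 above cKO 2.

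In relation to V, Ighm had 12.7, 10.0 and 22.0 counts for each heavy chain V member count in Ctrl and 66.7 and 17.8 in cKO 1 and 2. In cKO 3, 1004 Ighm counts stood beside 1 count of V members. With all V segments of the table, a comparison added after the data had been seen, the ratio was 12.5, 9.58 and 18.2 in Ctrl and 53.4, 16.8 and 83.7 in cKO, with 12 heavy chain V counts in cKO 3. Igkc had 3.07, 3.87 and 2.98 counts per kappa V member count in Ctrl, 16.1 in cKO 1 and 2.99 in cKO 2. With all kappa V segments these were 2.94, 3.85 and 2.98 in Ctrl, 6.71 in cKO 1 and 2.86 in cKO 2. In both ratios, cKO 1 lay above the range of Ctrl and cKO 2 within it or just below it. Lambda made up 0.391%, 8.05% and 22.7% of light chain constant counts in Ctrl. It was at 0 of 161, 0 of 400 and 0 of 6 counts in cKO, with upper Wilson limits of 2.33%, 0.951% and 39.0%.

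The heavy chain D and J segments next to the constant gene had ratios of means (Ctrl over cKO) of 0.988 for D and 1.17 for J, against 9.22 for V. Ighd4-1, the D segment nearest to J and the only one of 20 with any count, and Ighj1, the first J segment, are shown here as the tested members next to the constant gene whose mean was not lower in cKO, and Ighj4, the last, because it had the smallest adjusted p of the tested members that did not pass the threshold. They lie on the minus strand at chr12:113430528-113430538, chr12:113429781-113429833 and chr12:113428514-113428567. The capitals mark the start of the conserved tryptophan and glycine codons of J.
Ighd4-1: ctaactgggac
Ighj1: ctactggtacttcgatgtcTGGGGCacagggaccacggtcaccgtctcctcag
Ighj4: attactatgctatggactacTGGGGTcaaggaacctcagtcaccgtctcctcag

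Ighd4-1 had 21, 24 and 7 counts in Ctrl and 13, 24 and 12 in cKO (log2 fold change 0.04, SE 0.50, adjusted p = 0.98 with edgeR). Ighj1 had 9, 39 and 5 counts in Ctrl and 18, 23 and 13 in cKO (log2 fold change 0.26, SE 0.54, adjusted p = 0.83). For both, the groups overlapped, and the sign of the small difference turned in some settings. These segments are shorter than 1 read, so that a read counted there also reached into the neighbouring sequence, rearranged or not.

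Ighj4 had 34, 43 and 0 counts in Ctrl and 13, 4 and 2 in cKO (log2 fold change -1.85, SE 0.88, unadjusted p = 0.0534, adjusted p = 0.23 with edgeR), and Ctrl 3 at 0 made the groups overlap. Without Ctrl 3 the adjusted p was 0.038. Ighj2 had 0, 2 and 9 counts in Ctrl and 7, 8 and 5 in cKO, and Ighj3 had 4, 6 and 1 against 4, 13 and 4. The kappa J members were found in Ctrl almost alone, with 0, 23 and 2 counts of Igkj2 in Ctrl and 0, 2 and 0 in cKO, and 21 counts of Igkj5, all in Ctrl 1.

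The genes of other cells and processes were read from the same fit, by lists of markers. Of 17 B cell genes, 7 were tested, none was lower and 1 was higher, Ralgps2 (log2 fold change 0.38, adjusted p = 0.019 with edgeR), with a median of 0.16. Levels within the list differed, with at most 0.286 CPM for Cd79a and 0.0634 CPM for Ms4a1, which encodes CD20, but 14.1 to 19.4 CPM for Cd79b, the partner of Cd79a in the B cell receptor, and 3.26 to 15.7 CPM for the adaptor Blnk. Blnk (log2 fold change 0.98, adjusted p = 0.052), Bank1 (0.85, adjusted p = 0.21) and Cd74 (-0.27, adjusted p = 0.48) followed Ralgps2 in adjusted p without passing the threshold. The summed level of the list was 110 to 124 CPM in Ctrl and 122 to 149 CPM in cKO. Most of it was Ralgps2, H2-Ab1, Cd74 and Cd79b, so that the sum says little of the genes too low to be tested. Among these, Blk had 18, 27 and 2 counts in Ctrl and 5, 5 and 1 in cKO, and Cd22 had 6, 17 and 4 against 7, 1 and 0. Others differed from them, with 5, 27 and 2 against 6, 6 and 11 counts for Pax5 and 0, 1 and 0 against 3, 1 and 0 for Cr2.

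Of 14 genes of antibody-secreting cells, 9 were tested, and Fkbp11, a chaperone of the secretory pathway, was lower (log2 fold change -0.70, adjusted p = 0.043 with edgeR), with a median of -0.06. Slamf7 (-1.45, adjusted p = 0.066), Tnfrsf13b (0.25, adjusted p = 0.083) and Derl3 (-0.73, adjusted p = 0.52) came next without passing the threshold. Sdc1, which encodes CD138, stood at 6.45 to 14.4 CPM and did not pass the threshold (log2 fold change 0.20, adjusted p = 0.69), and Tnfrsf17, the receptor BCMA, was at most 0.0639 CPM. The summed level was 226 to 234 CPM in Ctrl and 217 to 237 CPM in cKO, most of it Txndc5, Xbp1 and Tnfrsf13b. Pou2af1, a coactivator of immunoglobulin genes in B cells, had 4, 27 and 2 counts in Ctrl and 0, 1 and 0 in cKO. Mzb1, which assists IgM assembly, had 6, 17 and 0 counts in Ctrl and 2, 8 and 1 in cKO. Both had their highest count in Ctrl 2, the library with the highest V counts and also with the most counted reads, and neither was tested. Other untested genes of the list differed from them. Prdm1 had 8, 8 and 11 counts in Ctrl and 17, 12 and 9 in cKO, and Eaf2 had 3, 11 and 7 against 5, 8 and 8.

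Of 11 genes of B cell progenitors, 7 were tested and 3 were lower. Dntt, the terminal transferase that adds bases at V(D)J junctions, stood at 271, 549 and 219 CPM in Ctrl and 3.61, 5.96 and 8.40 CPM in cKO (log2 fold change -5.86, adjusted p = 4.9e-08 with edgeR). Vpreb1, part of the surrogate light chain (-1.99, adjusted p = 0.028), and Il7r, the receptor of a lymphoid growth factor (-1.42, adjusted p = 0.014), were lower as well. The median was -0.86. The summed level was 233 to 581 CPM in Ctrl, most of it Dntt, and 16.5 to 22.3 CPM in cKO, where Dntt was the smaller part. Within Ctrl, the mice had the same order (2, 1, 3) in Dntt as in the sum of the immunoglobulin members, but within cKO the orders differed.

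The recombinase genes Rag1, with 45, 86 and 33 counts in Ctrl and 27, 62 and 39 in cKO, and Rag2, with 119, 217 and 88 against 77, 106 and 57, did not pass the threshold (log2 fold change -0.19 and -0.66, adjusted p = 0.79 and 0.13). Of 14 genes of V(D)J recombination, all were tested, with Dntt lower and Xrcc5, a subunit of the Ku end-joining complex, higher (0.39, adjusted p = 0.015 with edgeR), and a median of -0.08. Of 10 factors of immunoglobulin gene transcription, 8 were tested and Irf8 was lower (-0.78, adjusted p = 7.6e-04), with a median of -0.07.

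Lists of other cell types gave 1 lower gene of 8 tested plasmacytoid dendritic cell genes (Irf8, median -0.11) and 1 lower of 4 tested T cell genes (Trbc1, a constant gene of the T cell receptor, log2 fold change -4.48, adjusted p = 8.0e-04, median -0.21). The antibody cocktail of the sort also marks T cells. The defining dendritic cell gene Siglech stood at 0.067 to 0.703 CPM. Of 8 genes of LSK cells, all tested, Mecom was higher (0.45, adjusted p = 0.0032), with a median of -0.03. The part of any of these cells in the immunoglobulin counts was not tested.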

How the data were processed

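Total RNA of sorted LSK cells was reverse-transcribed and amplified by the authors with a strand-specific low-input kit without molecular identifiers and sequenced as single reads of 75 bases. Base calls were converted with bcl2fastq 2.17.1.14, and the reads were aligned to the mouse genome (mm10) with GSNAP. The authors deposited read counts per gene for 45706 genes, made with featureCounts 1.5.0 on Ensembl gene models from reads that aligned uniquely and to the gene's own strand. The counts are raw, with a column for each mouse. How reads across V(D)J junctions were placed is not given in the sources used here. Depth is 13003573 to 21277519 counts per library.

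GENCODE M21 gave the symbols (98.8% of genes named), and the table's coordinates and exon lengths were used. From the counts, edgeR 4.0.16 in R 4.3.3 was run on all 6 libraries and all genes, with TMM, filterByExpr defaults and the quasi-likelihood test of genotype without covariates. Adjustment was by Benjamini and Hochberg over 15184 genes (threshold 0.05), and all adjusted p-values are from edgeR unless DESeq2 1.42.0 is named. Standard errors are the size of the log2 fold change over the root of its F statistic. The procedure was tested on simulated data. V use was described by the share of the leading segment (Wilson 95% interval), the inverse Simpson index and the segments in 20 counts drawn by the hypergeometric formula, where a library had at least 20 V counts of a locus. A count of 0 was taken to allow up to 3 counts per library.

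Mice were grouped by the genotype in the labels. P-values measure the spread between single mice, 1 library each. The members, the lists of other genes and the tests were chosen with earlier results of these data known. Named were all constant genes and Jchain, the leading V segment of each library and locus, the 5 V members with the highest mean CPM per locus, the highest D and J members, members past the threshold, the 3 genes on each side of the minimum, and in lists up to 4 genes with the smallest adjusted p and the defining markers. Any other gene was named with its values known. Alternatives were DESeq2 and its size factors, no filter or at least 10 counts in every library, a threshold of 0.01, the library series as covariate, each mouse left out, other minimums for members, and other sets of V segments. The authors' own comparisons were not used. An item of the marker lists is not reported here.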

Additional observations from a re-analysis of the deposited data

How the results depend on the processing

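Ighm and Jchain kept their direction and stayed past the threshold in all settings in which they were tested, up to 11 per gene. Apart from the fit without a filter, the log2 fold change of Ighm lay between -1.97 and -1.41 (adjusted p 3.7e-05 to 0.0024), that of Jchain between -3.60 and -2.45 (7.0e-04 to 0.027) and that of Igkc between -4.05 and -2.38 (0.0028 to 0.16). Igkc lost its call with DESeq2 (adjusted p = 0.16).

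The number of members lower in cKO, 4 of 8 tested as reported, was 2 with DESeq2 (Ighm and Jchain, with no adjusted p given for Igkv1-135). It was 1 with at least 10 counts in every library, where 2 members were tested. When each mouse was left out it was 4 to 8 (8 without Ctrl 3, 7 without cKO 1 or cKO 3). The filter then kept more members, from 9 without Ctrl 2 to 16 without cKO 3 (13 without Ctrl 3, 15 without cKO 1). These counts can therefore not be set against 4 of 8, and the share over all genes was not computed for them. Without a filter on low counts, 26 of 39 members were lower and 2 were higher. Of these 28, 13 had counts in 1 library only, and the adjusted p of Ighm was 2.5e-117 in that fit. The cause was not tested, and the calls of that fit are not used. Of the listed genes, 9 were past the threshold as reported, 14 without a filter, 4 at an adjusted p under 0.01, and 5 to 9 when each mouse was left out (5 without Ctrl 2 or cKO 2).

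Differences near 0 changed sign. Ighd ranged from -0.082 to 0.39, Ighj1 from -0.15 to 1.26 and Ighd4-1 from -0.33 to 0.40 (log2) when each mouse was left out, and within the first library series Ighd was at -0.10 and Ighd4-1 at -0.43. With the series as covariate, Ighd4-1 was at -0.21. Ighj4 passed the threshold without Ctrl 3 (adjusted p = 0.038) and without a filter (0.021).

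With all V segments of the table in place of members, the leading share was 43.7% for the heavy chain in Ctrl 3, 68.0% for the heavy chain in cKO 1 (from 85.0%) and 85.2% for kappa in Ctrl 1, and the effective number was 2.02 for the heavy chain in cKO 1 and 2.17 for kappa in cKO 2. Without Ighv1-5 and Igkv1-135, the leading shares in Ctrl 1 were 55.4% and 58.7%. Of the main values under other settings, 145 stayed within the spread between replicates, the counting interval or 1.5 times a count, and 17 did not. The spread is wide, so that the 145 include heavy chain V of cKO 3, which was 0.070 CPM over members and 0.840 CPM over all V segments. The use of lambda V segments was not computed, as there was 1 member. No paired analysis was possible because the labels number the mice individually and, although the groups are described as littermates, no source used here says which mice shared a litter. V use in cKO 1 and cKO 3 is limited by their few V member counts, 30 and 1, although both libraries had more counted reads than Ctrl 1.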
